A study of Homo sapiens with 9 samples.

Results

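The mRNAs of the replication-dependent histones were followed through an eCLIP experiment on malate dehydrogenase 2 (MDH2), an enzyme of the mitochondrial tricarboxylic acid cycle whose cross-linked RNAs were mapped in Huh7 cells, a human line from a hepatocyte-derived carcinoma. In eCLIP, RNA is joined to protein by UV light in living cells, trimmed by RNase, pulled down with the protein, and sequenced so that reads stop next to the cross-link. The members are the protein-coding genes of GENCODE v44 whose symbol is H1-1 to H1-5 or starts with H2AC, H2BC, H3C or H4C and a number. H1-10 was not counted as a member. This gave 69 genes, with 5 of type H1, 17 of H2A, 19 of H2B, 13 of H3 and 15 of H4, beside 35308 identifiers with windows in the deposited table. Of the 69, 54 lie on chromosome 6, 13 on chromosome 1 and 2 elsewhere.

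The 3 groups of libraries compared had 3 replicates each and came from UV cross-linked Huh7 cells, for which the labels name no treatment and no genetic change. MDH2 IP holds RNA recovered with an antibody to MDH2, and IgG IP holds RNA recovered with a control IgG. The size-matched input (SMI) is lysate that skipped the immunoprecipitation and was cut out of the gel at matching size. The IP libraries had 14 PCR cycles and the SMI libraries 9, so cycle number and IP cannot be told apart. The labels do not say that replicates came from separate cultures, and p-values measure only the spread between these libraries.

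Replication-dependent histone mRNAs encode the bulk histones that package newly copied DNA. They are made in S phase from clustered genes that mostly lack introns, and they end in a conserved stem-loop in place of a poly(A) tail. The stem-loop is bound by SLBP, and the end is cut by a complex that contains the U7 snRNA. H2A, H2B, H3 and H4 form the core of the nucleosome, and H1 binds the DNA between nucleosomes.

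The stem-loop is shown here because it defines these mRNAs and because in 31 members the windows of the table stop before it. A stem-loop of 16 nt was found within 150 nt past the stop codon in 68 of 69 members and in 20 of 19964 other protein-coding genes (0.1%), on the transcribed strand of hg38. H2BC12L was the member with no match. The distance from the stop codon ran from 22 to 67 nt, with a median of 35 nt. Of 10 different forms, the commonest was held by 40 members and appears below in H1-4. All 15 H4 members had a stem that starts with GGCCC and ends with GGGCC, against 0 of 53 members of the other types. The sequences below are written 5′ to 3′ with the stem-loop in capitals and 5 flanking bases in lower case.
H1-4, chr6:26157095-26157110, plus strand: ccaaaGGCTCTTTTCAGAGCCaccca
H2BC4, chr6:26123472-26123487, minus strand: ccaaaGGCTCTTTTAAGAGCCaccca
H4C3, chr6:26104317-26104332, plus strand: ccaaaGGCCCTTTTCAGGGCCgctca
H4C11, chr6:27824459-27824474, plus strand: taaaaGGCCCTTTTCAGGGCCaccct

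The values are counts of cross-link sites. Each gene was tiled by overlapping windows, 50 nt long and 20 nt apart, so that a site can enter up to 3 windows. Of the 69 members, 60 had exon windows, 1473 in all, and the other 9 (H2AC18, H2AC19, H2BC1, H3C2, H3C3, H3C15, H4C6, H4C7 and H4C9) were not analysed here. In 31 members the windows ended at the stop codon, so counts on the stem-loop are not among them. Exon windows held between 3249743 and 5077928 counts per MDH2 IP library, between 3651574 and 4657825 per SMI library and between 506394 and 1134240 per IgG IP library. The IgG IP values thus rest on far fewer sites. Histone copies are close in sequence, reads with up to 10 alignments were kept, and reads of one copy can therefore be counted on another. No member had 3 or more windows of at least 10 counts whose values in all libraries were identical to windows of one and the same other gene. Single windows identical to one of any other gene were found, up to 15 of 22 in H1-3, a gene with few counts. The comparison was of counts with windows of all genes, and whether reads were shared was not tested. The hepatocyte markers ALB, AFP and APOB were abundant in every library, while PTPRC, COL1A1 and GFAP had at most 2.68 CPM (counts in a library scaled to a common library size) in any library and PECAM1 at most 10.2, so the markers fit the label of a hepatocyte-derived line.

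The window with the most MDH2 IP counts in each histone type is shown next, taken from the 31 genes whose windows cover the coding sequence alone, since only there could a window be placed on the genome. Windows of other genes held more counts in some types, such as one in H4C8 described further on. The windows shown were picked by their counts, so their levels are a description. Each lies in the single coding exon of its gene on hg38, and 3 of the 5 begin at the start codon, whose ATG is in capitals. The windows of H1-4, H2BC6 and H4C5 start at base 1 of the coding sequence, that of H3C4 at base 2 and that of H2AC8 at base 41.
H1-4, chr6:26156391-26156440, plus strand: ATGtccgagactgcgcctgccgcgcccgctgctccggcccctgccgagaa
H2AC8, chr6:26217015-26217064, plus strand: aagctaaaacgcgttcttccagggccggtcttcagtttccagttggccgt
H2BC6, chr6:26183796-26183845, plus strand: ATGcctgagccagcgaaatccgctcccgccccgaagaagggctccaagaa
H3C4, chr6:26197200-26197249, minus strand: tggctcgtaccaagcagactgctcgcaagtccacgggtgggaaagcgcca
H4C5, chr6:26204645-26204694, plus strand: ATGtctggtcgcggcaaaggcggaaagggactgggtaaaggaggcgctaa

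In H1-4 this window held 137, 96 and 82 counts in the MDH2 IP replicates 1 to 3, 49, 76 and 63 in the SMI, and 31, 6 and 6 in the IgG IP. In H2BC6 it held 56, 17 and 38 counts in the MDH2 IP, 10, 16 and 17 in the SMI, and 6, 3 and 5 in the IgG IP. In H4C5 it held 57, 34 and 40 counts in the MDH2 IP, 26, 29 and 52 in the SMI, and 16, 5 and 3 in the IgG IP. The MDH2 IP counts lay above all SMI counts in H1-4, the lowest equalled the highest of SMI in H2BC6, and the groups overlapped in H4C5. This order is of raw counts, not scaled to library size, and scaling can change it. None of these windows passed the test for enrichment described below.

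Together, the histone genes took nearly equal mean shares of the exon-window counts in MDH2 IP and SMI, which differed by 0.0024 percentage points, less than the spread of the libraries. The share was 0.344%, 0.271% and 0.419% in the MDH2 IP replicates 1 to 3, with a mean of 0.345% ± 0.074 (SD, n = 3). In SMI it was 0.351%, 0.268% and 0.408%, with a mean of 0.342% ± 0.070 (SD, n = 3). In IgG IP it was 0.429%, 0.177% and 0.294%, with a mean of 0.300% ± 0.127 (SD, n = 3). All pairs of groups overlapped, and replicate 2 was the lowest in each group. The exact two-sided permutation p over libraries was 0.9 for MDH2 IP against SMI, 0.7 for MDH2 IP against IgG IP and 0.7 for IgG IP against SMI, where 3 libraries against 3 cannot give a p below 0.1.

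The result depends on what the histone counts were set against. Exon windows held 53.6% to 59.9% of all window counts in the MDH2 IP, 43.9% to 49.8% in the SMI and 31.04% to 38.6% in the IgG IP, without overlap between the groups. As a share of exon and intron windows together, a denominator chosen after the data had been seen, histone genes held 0.221% ± 0.037 in the MDH2 IP, 0.179% ± 0.028 in the SMI and 0.121% ± 0.060 in the IgG IP (SD, n = 3 each). The groups of MDH2 IP and IgG IP no longer overlapped (exact permutation p = 0.1), and those of MDH2 IP and SMI still did (exact permutation p = 0.2). Against nuclear protein-coding genes alone the order of MDH2 IP and SMI turned, with 0.399% ± 0.085 in the MDH2 IP and 0.459% ± 0.088 in the SMI.

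The histone types contributed in similar proportion to each group. H2B held the most counts, with 28.0% ± 1.6 of the histone counts in the MDH2 IP, 27.9% ± 1.0 in the SMI and 25.9% ± 1.6 in the IgG IP (SD, n = 3 each). H1, with only 5 genes, held 23.1% ± 2.3 in the MDH2 IP, 20.0% ± 1.5 in the SMI and 21.9% ± 2.4 in the IgG IP. H2A held 21.6% ± 0.55, 22.8% ± 1.3 and 21.7% ± 3.2. H3 held 11.2% ± 0.46 in the MDH2 IP, 12.2% ± 0.56 in the SMI and 10.3% ± 1.2 in the IgG IP, and here the libraries of each IP lay below all SMI libraries. H4 held 16.1% ± 0.67 in the MDH2 IP and 17.0% ± 1.0 in the SMI, and 20.2% ± 3.2 in the IgG IP, which lay above all libraries of both other groups. Each of these separations had an exact permutation p of 0.1 and an adjusted p of 0.375 over the 15 comparisons of types, so none passed the threshold.

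**Figure D1:**
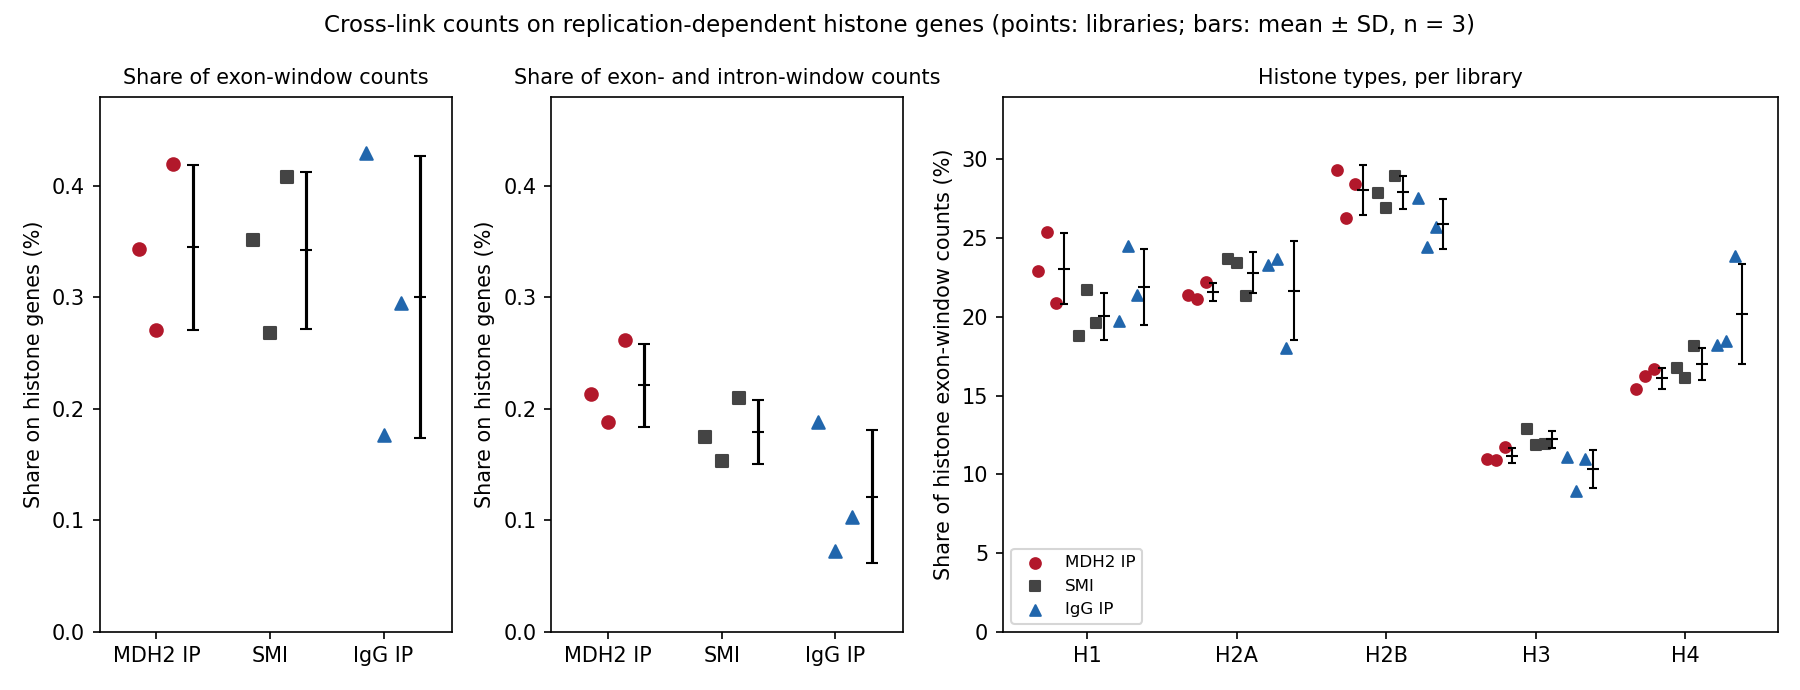
Share of cross-link window counts on histone genes (y axis, percent), for exon windows (left), for exon and intron windows (middle) and split by histone type (right), with a point for each library and bars for the mean ± SD of 3 libraries. MDH2 IP and SMI overlap on the left at means of 0.345% and 0.342%, and on the right H2B is the highest type in each group and H3 the lowest.

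Levels were compared between genes only per length, among the 31 genes whose windows cover just the coding sequence, as CPM, scaled by TMM (the trimmed mean of M values), per kb of coding length. In SMI they ran from 5.90 for H3C6 to 363 for H1-2. H1-4 was second at 345, followed by H4C5 at 290, H2AC20 at 231 and H1-5 at 226. In MDH2 IP the same 2 linker histone genes led, H1-2 at 416 and H1-4 at 414, and in IgG IP they led at 325 and 320. H1-3, another linker histone gene, was low throughout, at 21.9 in the SMI and 23.03 in the MDH2 IP. Members of a type thus differed widely, with H2AC14 at 9.12 and H2AC20 at 231 among the H2A genes in SMI, while the 2 leading genes were the same in all 3 groups.

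Whether MDH2 IP recovered histone mRNAs beyond their level in the lysate was asked by testing exon-window counts per gene between MDH2 IP and SMI with edgeR, over all genes that reached 10 counts in 3 or more of the 6 libraries. Of 13922 genes tested, 1197 were higher in MDH2 IP (8.60%) and 1496 lower (10.7%) at an adjusted p of at most 0.05. Of the 60 histone genes with windows, 54 passed the count filter, and H2AC1, H2BC12L, H3C8, H3C14, H4C14 and H4C15 did not. One of the 54, H4C11, was higher and 0 were lower. With the replicate number as a block there were 2 higher and 13 lower. The share of all genes called with the block is not given here, so these counts have no background beside them. The sources do not say that a number marks a shared lysate. DESeq2 made the same calls, 1 higher and 0 lower. At an unadjusted p under 0.05 there were 6 histone genes, against 34.1% of all genes. Every MDH2 IP library lay above every SMI library in 2 histone genes, H1-4 and H4C11, against 20.0% of all genes, and below in 1, H4C3, against 18.9%.

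The log2 fold changes of the 54 genes ran from -1.09 for H4C12 to 2.84 for H4C11, with a median of -0.17 and a median SE of 0.27. The median over all 13922 genes was 0.01. Of the histone genes 12 were above 0, against 50.3% of all genes. The median turned to 0.15, with 4 genes higher (H1-2, H1-4, H2BC3 and H4C11), when exon and intron windows of all genes were summed. The median and the called share of all genes in that fit are not given here. Only 10 histone genes have intron windows, so that for the others, H1-2, H1-4 and H4C11 among them, the scaling changed and not the counts. The part that the exon shares of the libraries, given above, have in this turn was not tested. Scaling by total counts moved the median of all genes to 0.17 and that of the histone genes to -0.01, which leaves nearly the same gap. By type, the median was 0.04 in 5 H1 genes, -0.22 in 14 H2A genes, -0.14 in 17 H2B genes, -0.15 in 8 H3 genes and -0.21 in 10 H4 genes. None of the H2A genes was above 0, and 3 of the 5 H1 genes were.

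Among the linker histone genes, H1-4 and H1-2 had the highest mean CPM of all members. H1-4 (ENSG00000168298, chr6:26156329-26157115, plus strand) had 279, 284 and 257 CPM in the MDH2 IP, 211, 241 and 232 in the SMI, and 299, 153 and 182 in the IgG IP. Its MDH2 IP libraries all lay above SMI, but the log2 fold change of 0.23 ± 0.13 (SE) did not pass (edgeR adjusted p = 0.265). H1-2 had 268, 249 and 284 CPM in the MDH2 IP, 226, 218 and 256 in the SMI, and 281, 153 and 192 in the IgG IP. Its groups overlapped, with a log2 fold change of 0.16 ± 0.14 over SMI. Neither gene has intron windows, but with those of other genes in the sums, and so in the scaling, both passed, at log2 fold changes of 0.56 for H1-4 and 0.50 for H1-2 (edgeR adjusted p = 0.0137 and 0.0140). H1-5 had 133, 87.7 and 198 CPM in the MDH2 IP, 162, 92.1 and 208 in the SMI, and 171, 58.5 and 157 in the IgG IP, and replicate 2 was the lowest in each group.

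Among the H2A genes, which encode a core histone paired with H2B, H2AC6 had 115, 111 and 133 CPM in the MDH2 IP, 139, 121 and 123.0 in the SMI, and 148, 71.5 and 42.6 in the IgG IP. H2AC7 had 81.8, 64.4 and 92.4 CPM in the MDH2 IP, 91.1, 84.7 and 85.8 in the SMI, and 99.9, 91.0 and 83.3 in the IgG IP. H2AC8 had 75.5, 75.0 and 115 CPM in the MDH2 IP, 88.5, 77.3 and 96.9 in the SMI, and 122, 42.2 and 54.2 in the IgG IP. All 3 genes overlapped between the groups, with log2 fold changes over SMI of -0.13 ± 0.15, -0.17 ± 0.17 and -0.02 ± 0.20 (SE).

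Among the H2B genes, H2BC21 had 149, 94.1 and 179 CPM in the MDH2 IP, 156, 98.8 and 194 in the SMI, and 200, 92.6 and 122 in the IgG IP. H2BC4 had 109, 94.1 and 127 CPM in the MDH2 IP, 111, 102 and 143 in the SMI, and 135, 32.5 and 60.0 in the IgG IP. H2BC5 had 130, 88.5 and 165 CPM in the MDH2 IP, 106, 92.5 and 157 in the SMI, and 134, 63.4 and 114 in the IgG IP. Replicate 2 was the lowest and replicate 3 the highest in both MDH2 IP and SMI for all 3 genes, and the differences between replicates exceeded those between the groups. Their log2 fold changes over SMI were -0.12 ± 0.28, -0.14 ± 0.18 and 0.08 ± 0.25 (SE).

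Among the H3 genes, which encode the canonical H3 with its modified tail, H3C1 had 59.6, 48.2 and 68.5 CPM in the MDH2 IP, 89.1, 61.1 and 113 in the SMI, and 77.6, 43.9 and 46.5 in the IgG IP. It had a log2 fold change of -0.61 ± 0.23 (SE) over SMI that did not pass (edgeR adjusted p = 0.0951). It passed without SMI replicate 2, at -0.82 (edgeR adjusted p = 0.0336). H3C4 had 68.0, 38.3 and 87.6 CPM in the MDH2 IP, 90.2, 56.0 and 87.9 in the SMI, and 86.5, 21.1 and 71.6 in the IgG IP. H3C10 had 49.2, 59.7 and 82.5 CPM in the MDH2 IP, 75.0, 56.4 and 74.7 in the SMI, and 91.0, 24.4 and 56.2 in the IgG IP. The groups overlapped for all 3 genes.

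Among the H4 genes, H4C3 had 102, 113 and 118 CPM in the MDH2 IP, 142, 130 and 187 in the SMI, and 120, 60.1 and 89.1 in the IgG IP. Both IP groups lay below every SMI library, with a log2 fold change of -0.49 ± 0.17 (SE) for MDH2 IP over SMI (edgeR adjusted p = 0.0664) and -0.71 ± 0.26 for IgG IP over SMI (edgeR adjusted p = 0.0913). H4C2 had 92.9, 58.0 and 120 CPM in the MDH2 IP, 122, 73.8 and 126 in the SMI, and 174, 42.2 and 143 in the IgG IP. H4C8 had 97.9, 67.1 and 131 CPM in the MDH2 IP, 72.2, 57.6 and 118 in the SMI, and 153, 86.1 and 159 in the IgG IP. For H4C2 and H4C8 all groups overlapped.

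H4C11 (ENSG00000197238, chr6:27824092-27824480, plus strand), whose stem-loop is printed above, was the one member that passed against SMI. It had 16, 27 and 25 counts in the MDH2 IP, 2, 4 and 3 in the SMI, and 14, 6 and 0 in the IgG IP, which are 3.03, 6.64 and 7.45 CPM, 0.573, 0.925 and 0.711 CPM, and 12.5, 9.75 and 0 CPM. MDH2 IP lay above SMI without overlap, while IgG IP replicates 1 and 2 lay above all MDH2 IP libraries and replicate 3 was at 0. The gene met the filter of 10 counts in 3 libraries only through MDH2 IP. At its SMI level it could enter the test only by being high in MDH2 IP, so the filter and the call are not independent. The log2 fold change was 2.84 ± 0.61 (SE) over SMI (edgeR adjusted p = 0.0113) and -0.57 ± 0.75 over IgG IP (edgeR adjusted p = 0.767), and between IgG IP and SMI the gene did not meet the count filter. It held 97 window counts over all 9 libraries, spread over 7 neighbouring windows, so its counts stand for few sites. Without SMI replicate 1 the call was lost (edgeR adjusted p = 0.0574), and when any 1 of the MDH2 IP libraries was left out the gene no longer met the count filter.

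**Figure D2:**
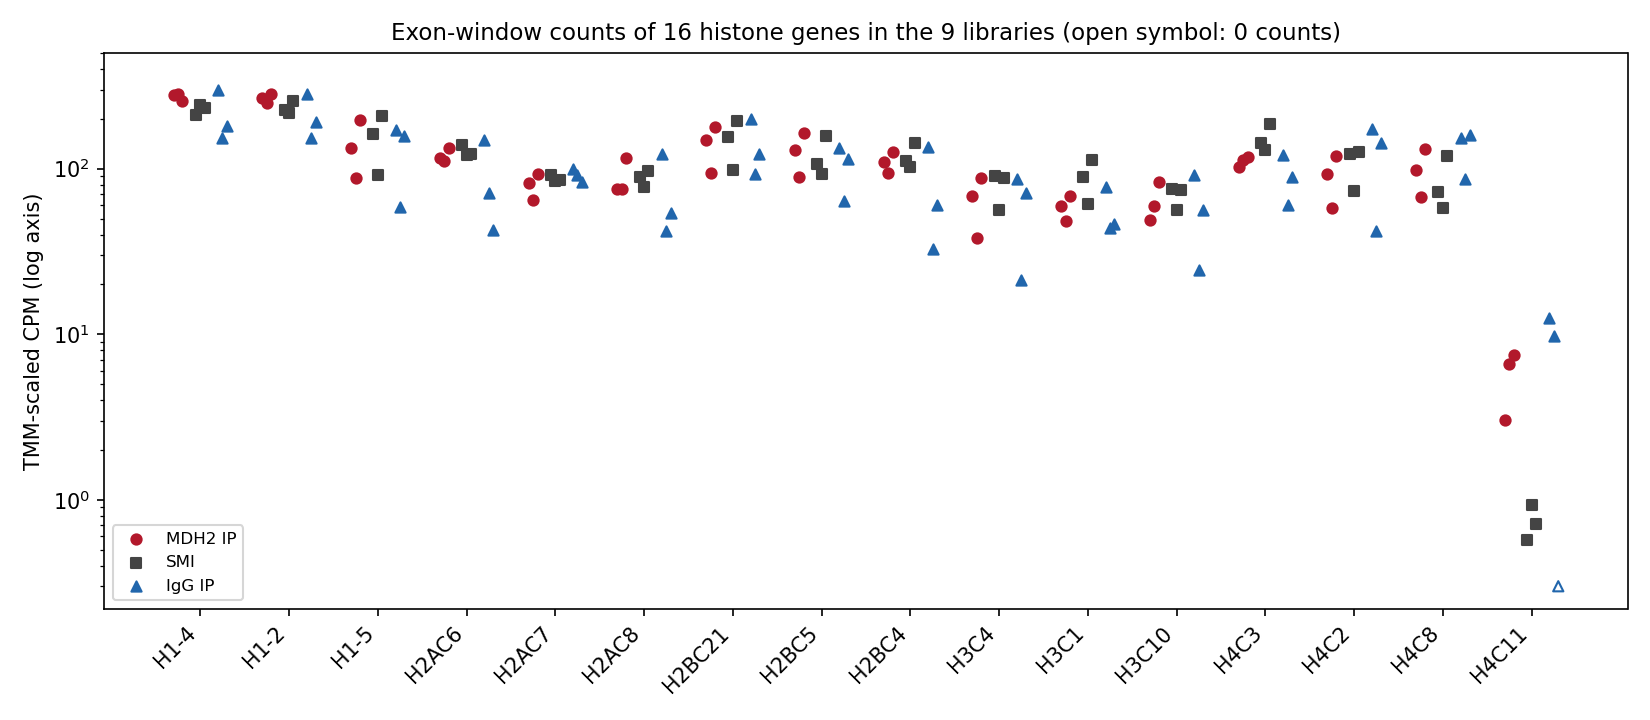
TMM-scaled CPM of exon windows (y axis, log axis) for 3 genes of each histone type with the highest mean and for H4C11, with a point for each library of MDH2 IP, SMI and IgG IP. H4C11 is the gene with MDH2 IP well above SMI, and its SMI libraries are all below 1 CPM. In the other genes the libraries of MDH2 IP and SMI lie close together.

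Against IgG IP, the control for RNA that sticks to beads and antibody, no histone gene was called. Of 12572 genes tested, 38 were higher in MDH2 IP (0.302%) and 226 lower (1.80%). Of 52 histone genes tested, 0 were higher and 0 lower in edgeR, 0 had an unadjusted p under 0.05, against 15.4% of all genes, and 0 were called by DESeq2. The log2 fold changes ran from -0.58 for H4C1 to 1.14 for H1-3, with a median of 0.06 and a median SE of 0.39, beside a median of 0.04 over all genes. H2BC26 was the one histone gene with every MDH2 IP library above every IgG IP library, against 13.4% of all genes, and 0 had every one below, against 10.1%. It had 55, 32 and 21 counts in the MDH2 IP and 6, 3 and 2 in the IgG IP. Single libraries decided the median, which was 0.60 without IgG IP replicate 1 and -0.23 without replicate 2 of that group. These 2 libraries had the highest and the lowest histone share of their group. Medians of all genes without them are not given here.

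IgG IP was set against SMI in the same way, to see how the controls differ from each other. Of 12787 genes tested, 1226 were higher in IgG IP (9.59%) and 765 lower (5.98%). Of 51 histone genes tested, 0 were higher and 0 lower in edgeR, 3 had an unadjusted p under 0.05 (H4C3, H4C8 and H4C12), against 30.0% of all genes, and DESeq2 called 0 in either direction. The median was -0.30, beside -0.105 over all genes. H2BC26, H4C3 and H4C12 had every IgG IP library below every SMI library, against 21.7% of all genes. Without IgG IP replicate 1, the median was -0.79 and 6 histone genes were lower (H2AC6, H2AC20, H2BC4, H2BC11, H3C11 and H4C3). The median and the called share of all genes without this library are not given here, so these values have no background. MDH2 IP and IgG IP share the SMI libraries as their control in these comparisons.

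**Figure D3:**
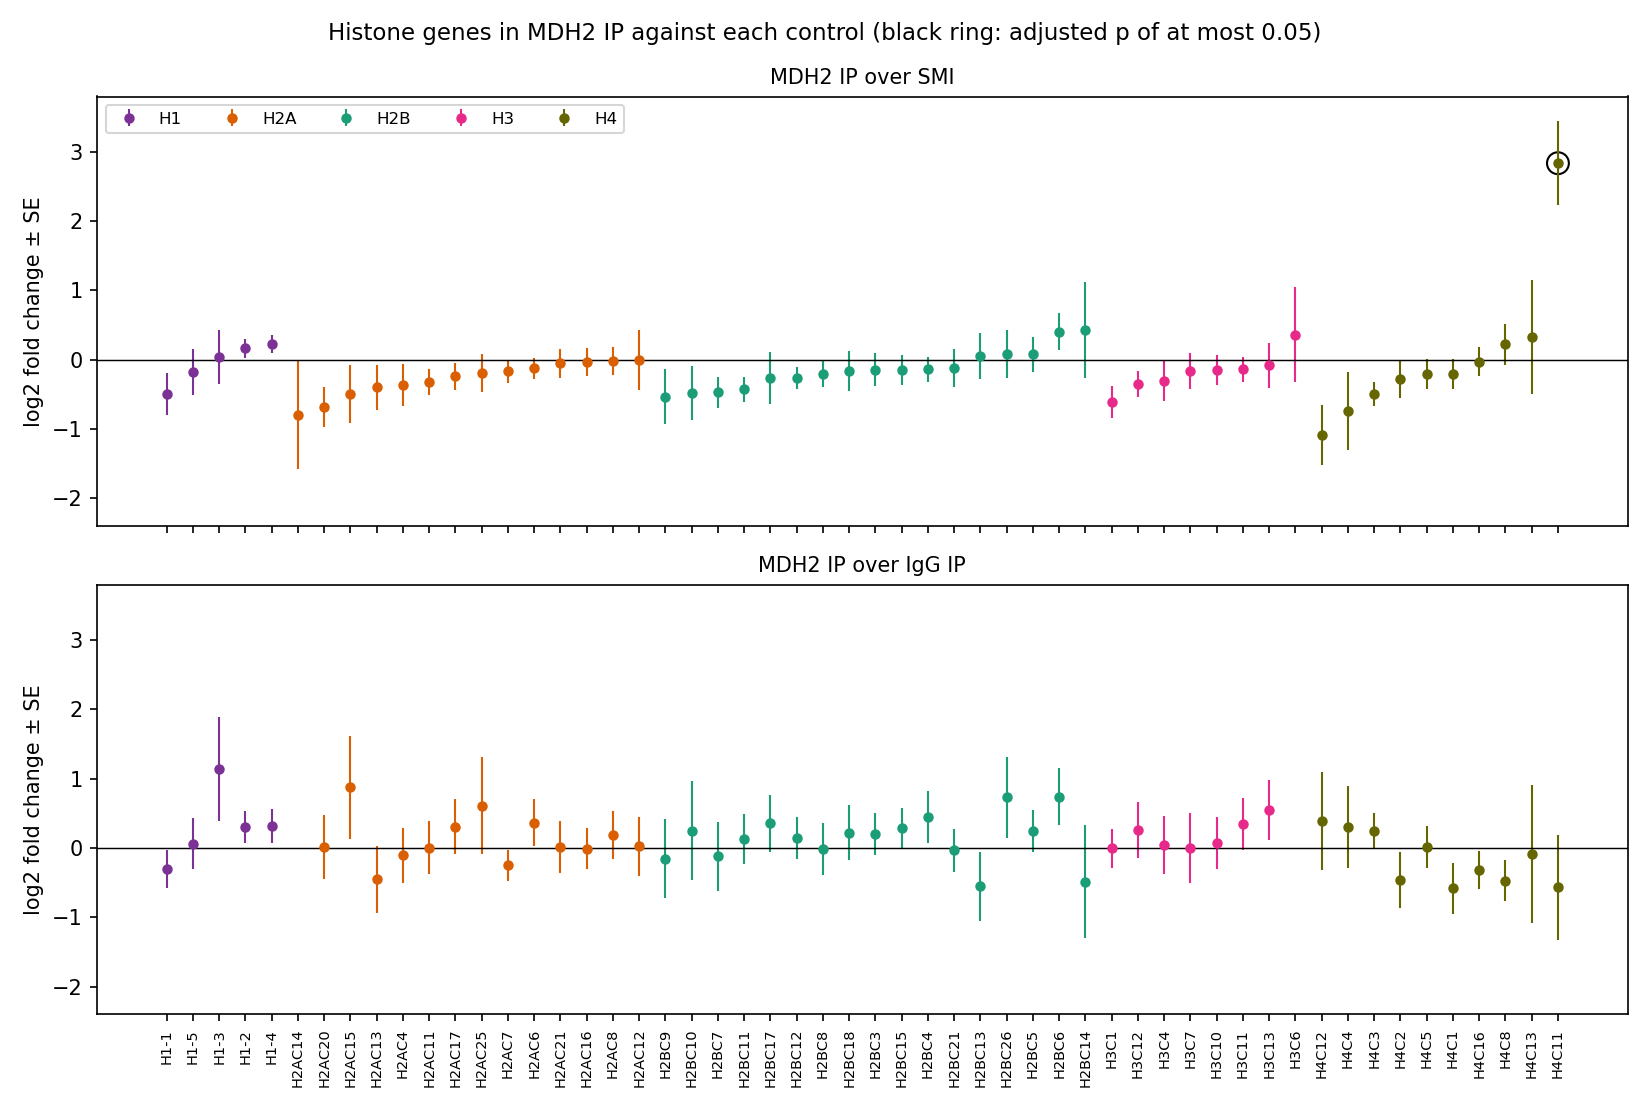
Log2 fold change ± SE (y axis) of each tested histone gene (x axis, ordered by type and by its value over SMI) for MDH2 IP over SMI (top, 54 genes) and over IgG IP (bottom, 52 genes). A black ring marks an adjusted p of at most 0.05, which only H4C11 over SMI reached. Most genes lie within 1 of 0.

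Windows were also tested singly, one-sided for enrichment and at a log2 fold change of at least 1, to find short stretches that a sum over the gene would dilute. Between MDH2 IP and SMI 2080 of 51105 windows were enriched (4.07%). Of 647 histone exon windows tested, on 40 genes, 0 were enriched in edgeR and 0 were called by DESeq2. At an unadjusted one-sided p under 0.05, 24 were higher and 119 lower, against 20.4% and 21.1% of all windows. The highest log2 fold change was 1.19, in the first window of H2BC6 shown above, and the lowest was -1.71. By the same thresholds in the other direction 5070 of all windows were lower (9.92%), among them 7 histone windows. Of these, 3 were neighbours in H2AC20 and 1 each lay in H2AC11, H2BC5, H2BC12 and H4C12. The 3 windows of H2AC20 had log2 fold changes between -1.48 and -1.36, and the one in H2BC12, which ends at the stop codon, had -1.50. Total counts as library size gave 31 of 647 enriched histone windows, where 23.8% of all windows were enriched. A filter of 30 counts gave 4 of 95, against 14.4% of all windows. Leaving out MDH2 IP replicate 2 gave 2, against 1.79%.

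Over IgG IP 45 of 30424 windows were enriched in MDH2 IP (0.148%). Of 386 histone windows 0 were enriched in edgeR and 0 in DESeq2. At an unadjusted one-sided p under 0.05, 23 were higher and 23 lower, against 10.2% and 11.9% of all windows. In the other direction 1452 of all windows were lower (4.77%), and 2 histone windows were, in H2BC8 and H4C1. Between IgG IP and SMI 1645 of 26666 windows were enriched in IgG IP (6.17%), and 2 of 464 histone windows were. At an unadjusted one-sided p under 0.05, 34 were higher and 18 lower, against 13.8% and 21.0% of all windows. The 2 enriched windows lay side by side in H4C8, with log2 fold changes of 1.46 and 1.57 (edgeR adjusted p = 0.00982 and 0.0199). In the other direction 6.34% of all windows and 0 histone windows were lower in IgG IP. The first of the windows in H4C8 held 21, 9 and 16 counts in the IgG IP, 25, 27 and 58 in the SMI, and 67, 32 and 67 in the MDH2 IP. Between 0 and 6 histone windows were enriched here when any 1 library was left out. The 6 came without IgG IP replicate 2, against 4.88% of all windows. Leaving out SMI replicate 1 or 2 gave 0, against 13.1% and 13.7%, where the count filter left 111 and 113 histone windows to test.

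The groups did differ in where along the histone gene the counts lay. In 50 histone genes with a single exon feature and no intron windows, the windows were split into 3 equal stretches from the 5′ to the 3′ end. The last of the 3 held 26.9%, 25.2% and 26.4% of the window counts in the MDH2 IP (26.2% ± 0.85, SD, n = 3). It held 28.9%, 30.6% and 31.02% in the SMI (30.2% ± 1.1) and 25.9%, 26.1% and 24.3% in the IgG IP (25.4% ± 0.97). Every library of either IP lay below every SMI library. The exact two-sided permutation p was 0.1 for each IP against SMI, the smallest that 3 against 3 allow, and 0.4 between the IPs, which differed by 0.74 percentage points.

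In the 31 genes whose windows cover the coding sequence alone, it was divided into 5 equal segments numbered from the start codon. Segment 1 held 27.4% ± 0.90 of the counts in the MDH2 IP, 22.1% ± 0.54 in the SMI and 28.6% ± 2.0 in the IgG IP (SD, n = 3 each). Both IPs lay above SMI in every library, by 5.32 and 6.54 percentage points (exact permutation p = 0.1 each), and the IPs overlapped (exact permutation p = 0.4). Segments 2 and 3 held between 19.2% and 20.4% in each group on average. Segment 4 held 18.04% ± 0.12 in the MDH2 IP, 19.3% ± 0.41 in the SMI and 15.95% ± 1.4 in the IgG IP, and here no groups overlapped (exact permutation p = 0.1 for each pair). Segment 5 held 15.7% ± 0.57 in the MDH2 IP, 18.3% ± 1.6 in the SMI and 16.5% ± 2.4 in the IgG IP, with MDH2 IP below every SMI library (exact permutation p = 0.1) and IgG IP overlapping both. This split was added after the values for the last of 3 stretches were known.

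The shift was spread over the histone types on average, but not in every library. Every MDH2 IP library lay above every SMI library for H1, H2A and H3. In H2B the lowest MDH2 IP and the highest SMI library were both at 28.4%. In H4 they were at 26.7% and 27.02%, so those groups overlapped. The share of segment 1, with the 3 libraries of a group summed, was larger in MDH2 IP than in SMI in 28 of 31 genes: 4 of 5 H1, 10 of 10 H2A, 5 of 7 H2B, 5 of 5 H3 and 4 of 4 H4 genes. The exceptions were H1-3, H2BC14 and H2BC17. The highest window lay in segment 1 in 25 of the 31 genes in MDH2 IP, in 17 in the IgG IP and in 12 in the SMI. Such counts over other genes are not given here, and the genes share the same libraries, so they are not replicates. H2BC6, H1-4 and H2AC8 were picked above by a window with the most MDH2 IP counts of their type among the 31 genes. That window lies in segment 1 in each, so the shares that follow are a description. In H2BC6 segment 1 held 35.7% of the counts in the MDH2 IP, 21.7% in the SMI and 33.8% in the IgG IP. In H1-4 it held 34.1% in the MDH2 IP, 30.4% in the SMI and 39.0% in the IgG IP. In H2AC8, whose most counted window starts at base 41, it held 18.6% in the MDH2 IP, 9.89% in the SMI and 17.3% in the IgG IP.

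The same shift was present in other genes whose listed windows lay in a single exon feature. In 197 other protein-coding genes with a single exon feature, no intron windows and at least 100 counts, the last of the 3 stretches held 26.1% ± 1.4 in the MDH2 IP, 30.6% ± 0.12 in the SMI and 26.1% ± 3.5 in the IgG IP. In the 40 histone genes that met the same count it held 25.9% ± 0.93, 30.1% ± 1.1 and 25.04% ± 0.74. The share was smaller in MDH2 IP than in SMI in 35 of 40 histone genes (87.5%) and in 154 of 196 others (78.6%). The first of the 3 stretches held 45.6% ± 0.54 in the MDH2 IP and 40.4% ± 1.0 in the SMI in the histone genes, and 44.4% ± 1.1 and 38.4% ± 0.36 in the others. Its share was smaller in MDH2 IP than in SMI in 5 of 40 histone genes (12.5%) and in 39 of 196 others (19.9%).

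**Figure D4:**
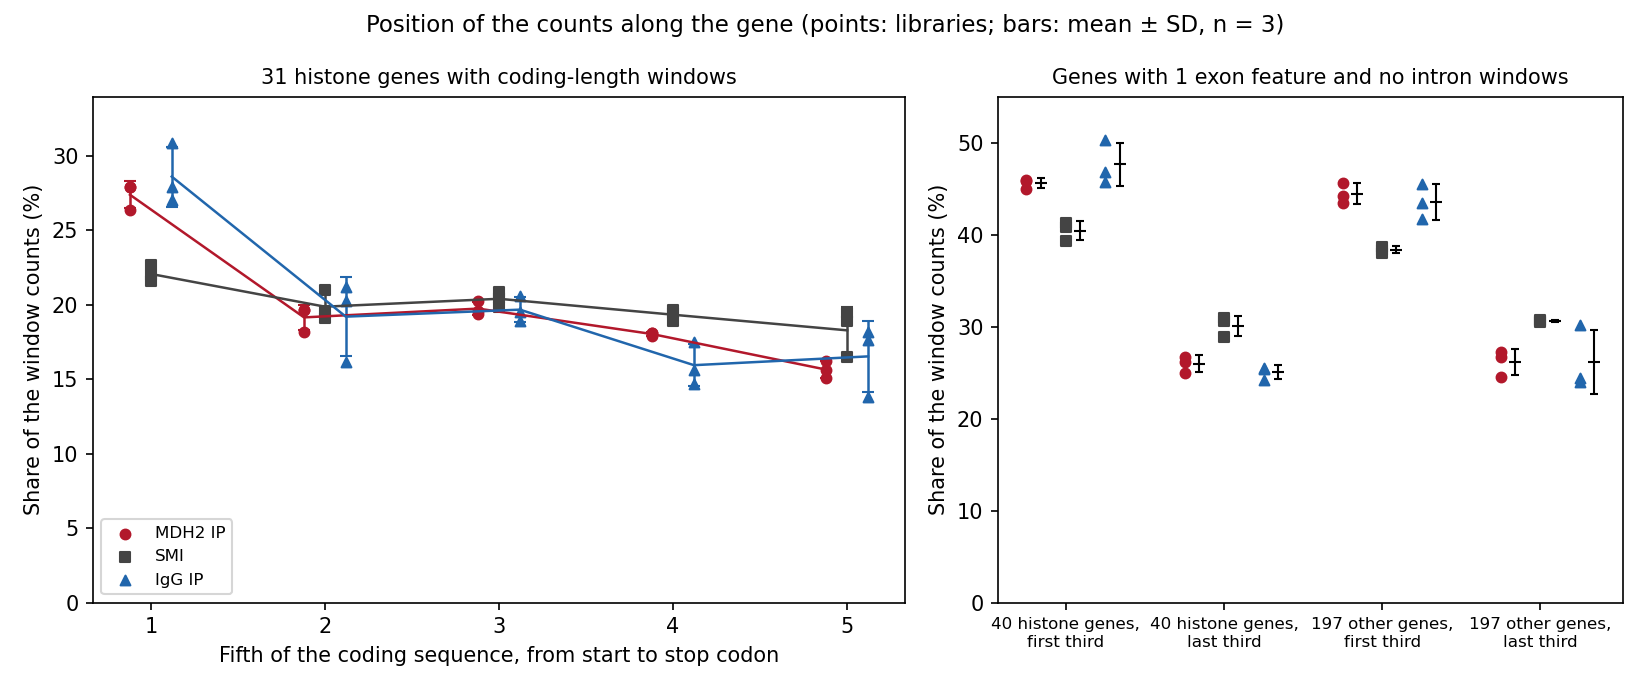
Share of window counts (y axis, percent) in the 5 segments of the coding sequence of 31 histone genes (left, x axis from start to stop codon) and in the first and last of 3 stretches of 40 histone genes and 197 other genes with 1 exon feature (right), with a point for each library and bars for the mean ± SD of 3 libraries. Both IP groups lie above SMI in segment 1, at 27.4% and 28.6% against 22.1%, and the histone and other genes show the same order of MDH2 IP and SMI in both stretches.

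The coding sequences of the members had a GC content from 48.6% to 67.9%, with a median of 61.2%. Across the 54 tested genes Pearson's r between GC content and the log2 fold change over SMI was 0.07, as a description over genes that share libraries and are not independent.

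Histone genes outside the replication-dependent set, most of whose mRNAs carry poly(A) tails, were looked at beside the members. MDH2 IP and SMI could be compared in 11 of 12 such genes, with a median of -0.09. Of the 11, 1 was higher and 0 lower, beside 8.60% and 10.7% of all genes, so the count is near that share. The higher one was H1-10, a linker histone gene, with 117, 156 and 99.8 CPM in the MDH2 IP, 66.7, 79.8 and 49.8 in the SMI, and 114, 115 and 73.6 in the IgG IP. Its log2 fold change was 0.89 ± 0.23 (SE) over SMI (edgeR adjusted p = 0.0235) and 0.25 ± 0.26 over IgG IP (edgeR adjusted p = 0.692). The call was lost when replicate 1 or 2 of MDH2 IP, or 1 or 3 of SMI, was left out (edgeR adjusted p between 0.0634 and 0.0958). H3-3B, one of the genes for the replacement histone H3.3, had log2 fold changes of -0.12 ± 0.15 over SMI and -0.18 ± 0.19 over IgG IP. H3-3A, the other, was low, at -0.53 ± 0.43 over SMI (edgeR adjusted p = 0.421). Over IgG IP 0 of 11 of these genes were called in either direction, beside 0.302% higher and 1.80% lower of all genes.

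The RNAs of factors that make, process and degrade histone mRNAs were the last group. In MDH2 IP over SMI 4 of 21 were higher and 0 lower, beside 8.60% and 10.7% of all genes. Over IgG IP 0 of 20 were called, beside 0.302% higher and 1.80% lower of all genes. The 4 were RNU7-1, SRRT, UPF1 and SYMPK. RNU7-1, the U7 snRNA that pairs with histone pre-mRNA downstream of the stem-loop, had 191, 155 and 144 counts in the MDH2 IP, 15, 13 and 6 in the SMI, and 54, 25 and 46 in the IgG IP. It was higher than in SMI by a log2 fold change of 3.72 ± 0.34 (SE) in MDH2 IP (edgeR adjusted p = 0.000118) and 4.36 ± 0.48 in the IgG IP (edgeR adjusted p = 0.000131). Its difference between the IPs was -0.62 ± 0.31 (edgeR adjusted p = 0.368).

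The other 3 encode proteins. SRRT, which links the cap-binding complex to RNA processing, had a log2 fold change of 0.97 ± 0.22 in the MDH2 IP and 0.90 ± 0.22 in the IgG IP, each over SMI. UPF1, a helicase that also acts in histone mRNA decay, had 0.67 ± 0.13 in the MDH2 IP and, without passing, 0.57 ± 0.18 in the IgG IP (edgeR adjusted p = 0.0559). Its difference between the IPs was 0.13 ± 0.18. SYMPK, a scaffold of the cleavage complex, had 0.55 ± 0.14 in the MDH2 IP and 0.71 ± 0.20 in the IgG IP. For MDH2 IP the call of SRRT was lost without replicate 1 of either MDH2 IP or SMI, and that of SYMPK without these or SMI replicate 2 (edgeR adjusted p between 0.0570 and 0.0868). In IgG IP over SMI, SYMPK, SRRT, RNU7-1 and CTIF were the 4 higher genes of 21 tested, with 0 lower, beside 9.59% and 5.98% of all genes. SLBP, the stem-loop binding protein, had 74.6, 60.2 and 89.1 CPM in the MDH2 IP, 51.8, 46.3 and 67.1 in the SMI, and 55.3, 17.9 and 44.5 in the IgG IP, with a log2 fold change of 0.40 ± 0.20 over SMI (edgeR adjusted p = 0.192). Its MDH2 IP and SMI libraries overlapped.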

How the data were processed

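Per the labels and the study's methods, the authors trimmed reads with cutadapt, aligned them with STAR to hg38 with GENCODE v23 genes, removed PCR duplicates by molecular identifiers, and deposited raw counts of cross-link sites per window (50 nt long, 20 nt apart). All 9 libraries and all count columns were used. Windows with at least 1 count are listed, and 0 columns were left out.

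Exon-window counts were summed per Ensembl identifier, named through GENCODE v44 (96.6% of 34950 matched), and tested with edgeR 4.0.16 in R 4.3.3 (TMM, quasi-likelihood, two-sided, only the 2 groups compared, no block, Benjamini-Hochberg over all genes tested). CPM are TMM-scaled over the 9 libraries. For windows, one-sided p-values were multiplied by how many tested windows overlap and then adjusted over all windows; lower windows used the same rule reversed. For shares, exact permutation tests over libraries (two-sided) were used. Windows are numbered along the genome, so their order was turned for minus-strand genes. Window lengths were inferred: in 31 members the highest window number is that of the coding length, or 1 less, and stop codons are included. A site near the end of a feature enters fewer windows. Tools for tables and plots were Python 3.11.15, pandas 2.3.3 and matplotlib 3.10.9.

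Values in every library are given for the 3 members of each type with the highest mean CPM and for further members called over SMI. Named genes of the lists of other histones and of processing factors are those called in any comparison and SLBP, H3-3A, H3-3B and RNU7-1; H2BC26 and the genes named in counts were chosen after their values were seen. Members and lists were chosen with earlier results of these data known. IgG IP was the shallowest, with 506394 to 1134240 exon-window counts. On simulated data for MDH2 IP over SMI, 161 of 200 genes raised or lowered 4-fold among 13554 were recovered, with 15 false calls. Of 200 windows raised 4-fold among 44716, 197 were recovered, with 1 false call.

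Alternatives were the DESeq2 1.42.0 Wald test, its size factors, total counts, other count filters, the replicate number as a block, all 9 libraries in one fit, intron windows added, non-overlapping windows only, other thresholds and regions, and leaving out each library.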

Additional observations from a re-analysis of the deposited data

How the results depend on the processing

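The labels give the groups the same replicate numbers. Same-numbered libraries of MDH2 IP and SMI had correlations of their deviations from the group means of 0.07, 0.47 and 0.49, and each library correlated best with its own number, as did IgG IP and SMI. The study set aside part of the input as SMI before the IP, so shared lysates are possible, but the sources do not give them by number. Differently numbered libraries of MDH2 IP and SMI had correlations from -0.47 to 0.06. As not every same-numbered pair was above 0.1, the numbers were not taken to pair the libraries. The permutation tests on shares left the libraries unpaired too, and a paired form was not run. The counts of called genes depend on this choice. With the replicate number as a block, MDH2 IP over SMI had 2 higher histone genes (H2BC6 and H4C11) and 13 lower. Of 647 histone windows 2 were enriched, against 7.47% of all windows. In IgG IP 1 gene was higher than in SMI (H4C8) and 3 lower. Shares of all genes called with the block are not given here. Over IgG IP the block called 0 histone genes.

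Against SMI, a minimum of 30 counts or the use of non-overlapping windows left 0 genes higher in MDH2 IP, since H4C11 fell below the filter. A minimum of 1 count gave 4 lower genes, and non-overlapping windows gave 2. With the intron windows of all genes in the sums and the scaling, 4 genes were higher than in SMI and 1 than in IgG IP (H1-2), and the medians were 0.15 and 0.64. In IgG IP over SMI, 1 count gave 1 higher gene (H4C11) and 2 lower, and intron windows gave 1 lower. Shares of all genes called under these settings are not given, so the gene counts have no background. Enriched histone windows in MDH2 IP over SMI numbered 31 of 647 with total counts as library size (23.8% of all windows) and 4 of 95 at a minimum of 30 counts (14.4%). In IgG IP over SMI there were 8 of 464 with total counts (8.24% of all windows) and 1 with DESeq2 (5.25%). At a minimum of 30 counts there were 0 of 33 (10.2%), and at a log2 fold change of 2 there were 0 of 464 (4.16%). Over IgG IP, 0 windows were enriched in MDH2 IP under any setting tried.

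The share on histone genes in MDH2 IP minus SMI turned to -0.0603 percentage points over nuclear protein-coding genes. The share of the last region in MDH2 IP minus IgG IP was -0.0425 for the last of 4 stretches in place of 3. The type shares in MDH2 IP minus SMI turned to -0.299 for H2B with non-overlapping windows and 0.0329 for H4 without its most counted member. Some separations of types were lost. With non-overlapping windows H3 in either IP overlapped SMI, as did H4 in the IgG IP, while H4 in the MDH2 IP stayed below IgG IP. Without the most counted member of each type, H3 in the MDH2 IP overlapped SMI, and the other separations stayed. Among named genes that were not called, total counts turned the log2 fold change over SMI to 0.033 for H2AC6, 0.14 for H2AC8, 0.040 for H2BC21, 0.019 for H2BC4, 0.013 for H3C10 and 0.041 for H3-3B. All 9 libraries in the fit gave 0.015 for H2AC8. Intron windows gave 0.16 for H1-5, 0.17 for H2AC7, 0.32 for H2AC8, 0.20 for H2BC21, 0.18 for H2BC4, 0.20 for H3C10, 0.026 for H3C4, 0.054 for H4C2 and 0.22 for H3-3B. The causes were not tested.

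Leaving out 1 library at a time gave 0 to 1 genes higher and 0 to 2 lower in MDH2 IP than in SMI, and 0 to 6 lower in IgG IP than in SMI. Shares of all genes called in these fits are not given. The median ran from -0.37 to -0.05 for MDH2 IP over SMI, from -0.23 to 0.60 over IgG IP and from -0.79 to 0.072 for IgG IP over SMI. Enriched histone windows ran from 0 to 2 in MDH2 IP over SMI and from 0 to 6 in IgG IP over SMI. The highest counts stood against 1.79% and 4.88% of all windows. The histone share ran from -0.0349 to 0.0393 percentage points for MDH2 IP minus SMI, from -0.0172 to 0.109 for MDH2 IP minus IgG IP and from -0.107 to 0.0196 for IgG IP minus SMI. For H2A it ran from -1.91 to 0.896 in MDH2 IP minus IgG IP and from -2.12 to 0.694 in IgG IP minus SMI, and for H2B from -0.536 to 1.00 in MDH2 IP minus SMI. The last of 3 stretches in either IP stayed below SMI, by -4.66 to -3.56 in MDH2 IP and -5.40 to -4.22 in IgG IP. Log2 fold changes over SMI crossed 0 for H1-5 (-0.51 to 0.080), H2AC8 (-0.25 to 0.10), H2BC21 (-0.35 to 0.11), H2BC5 (-0.14 to 0.31), H3C10 (-0.36 to 0.030) and H4C8 (-0.032 to 0.55). In H4C11 the edgeR or DESeq2 adjusted p ran from 0.00137 to 0.0574 where it was tested. Leaving out copies was not run: a copy was taken as a member with at least 3 windows identical to those of one and the same other gene, and no member had them. In H1-3, a gene with few counts, 15 of 22 windows each equalled a window of some other gene. Whether reads were shared there was not tested. The median SE of histone genes was 0.39 over IgG IP against 0.27 over SMI. The IgG IP libraries have both fewer counts and a larger spread of the histone share, and their parts in the SE were not tested.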
